A study of Mus musculus with 4 samples.

Results

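The comparison described here sets 2 libraries of CD8+ T cells from mouse lung side by side, both from C57BL/6J mice of the model that the labels call LC. One came from mice given an isotype antibody and the other from mice given an anti CD4-depleting antibody. They are 2 of the 4 libraries of the study, which holds the same pair for a second model, IPF-LC, and neither abbreviation is spelled out in the labels. The cells had been sorted from lung by surface CD3 and CD8. The number, age and sex of the mice behind each library and the length of treatment are not given in the sources used here, and the labels name no transgene or allele beyond the strain. With 1 library per group no difference had a replicate check, so the values describe these libraries and no p-value is given.

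CD8 T cells recognise peptides on MHC class I molecules and kill target cells with granzymes and perforin, and they also release interferon-gamma. CD4 T cells act on them from both sides: helper cells supply cytokines and license antigen-presenting cells, whereas regulatory T cells, a CD4 lineage defined by the transcription factor Foxp3, restrain them. An antibody against CD4 removes cells that carry CD4 on their surface, helpers and regulators alike, and CD4 is found at lower density on some mouse myeloid cells too.

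Total expected counts were 14946569 with isotype antibody and 15767812 after depletion, and 16415 and 14657 genes had a count. Of 55401 genes in each table, 17587 were detected in either library, 2930 of them with isotype antibody only and 1172 after depletion only. CPM stands for a gene's share of the TMM-scaled library, in counts per 1000000. A ratio is the log2 of the depleted over the isotype level, so that 1 means 2-fold higher after depletion. Beside a ratio stands its 95% interval, an exact conditional binomial one for counting error alone, since SMART-Seq v4 adds no molecular identifiers and reads made by PCR are not independent. In such bulk samples fewer cells of a type and less RNA per cell cannot be told apart.

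Of the 8498 genes that averaged 10 CPM or more over the LC pair, 229 were at least 2-fold higher after depletion (2.69% of those compared) and 559 were at least 2-fold lower (6.58%). The median ratio over these genes was 0.05, and 90.7% lay within 2-fold. The shares of 2.69% and 6.58% are the ones to set beside each count of list members below. The lower side reached much further than the higher side: a 4-fold difference was reached by 300 lower and 20 higher genes, and a 16-fold one by 179 and 2. The 2 genes on the higher side were Ccr4 and Il17f. More genes were lower than higher at every level. At 10 to 20 CPM, 273 of 1617 genes were lower and 86 higher, and at 20 to 50 CPM 191 of 2630 were lower and 77 higher. At 50 to 200 CPM the counts were 80 and 59 of 3274, and from 200 CPM on 15 and 7 of 977. When the libraries were instead scaled so that the CD8 T cell identity genes had a median ratio of 0, every ratio shifted down by 0.27, and the split became 114 higher and 790 lower.

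**Figure D1:**
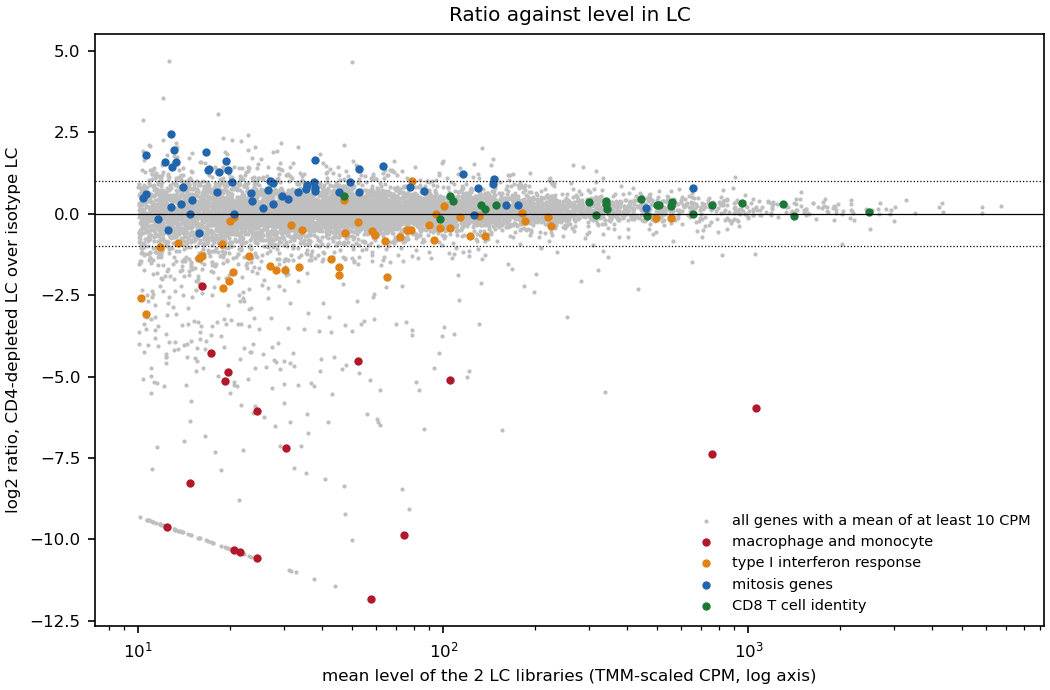
Each point is a gene, with its mean level in the LC pair on the horizontal log axis (TMM-scaled CPM) and its log2 ratio of CD4-depleted over isotype on the vertical axis; dotted lines mark 2-fold. The 24 CD8 T cell identity genes lie between -0.16 and 0.56, the macrophage genes run down to the lowest ratios, and the straight line of points at the lower left holds genes with 0 counts after depletion, whose plotted ratio depends on the prior count of 0.5.

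Transcripts that define a CD8 T cell were present at similar levels in both libraries. Cd8a, which encodes the alpha chain of the coreceptor, stood at 476 CPM with isotype antibody and 452 after depletion (ratio -0.07, -0.12 to -0.03), and Cd8b1, the beta chain, at 693 and 828 (0.26, 0.22 to 0.29). Cd3e, a signalling chain of the T cell receptor complex, stood at 513 and 599 (0.22). None of the 24 identity genes was 2-fold apart. Of these, 19 had a ratio above 0, and their median was 0.27, where the median of all genes was 0.05. Bcl11b, a transcription factor needed for T cell commitment, had the highest ratio of the list (0.56) and Runx3, which sets the CD8 lineage, the lowest (-0.16). Cd4 itself was low in both libraries, at 12 and 16 counts, so that no difference was detectable at this depth (0.38, -0.78 to 1.61).

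Transcripts of cells that the sort should leave out were also present, above all in the isotype library. Markers of macrophages and monocytes, 24 in all, added up to 4668 CPM with isotype antibody and to 65.6 CPM after depletion, and 10 of the 24 had no count after depletion, against 0 with isotype antibody. The 17 that reached the minimum level were all at least 2-fold lower. Lyz2, which encodes lysozyme, stood at 2089 and 33.4 CPM (-5.96, -6.09 to -5.84). Chil3, a chitinase-like protein secreted by alveolar macrophages, stood at 1507 and 9.06 CPM (-7.37, -7.63 to -7.14). Clec7a, the receptor for fungal beta-glucan, had 1792 counts with isotype antibody and 0 after depletion, at least 606-fold lower by a floor of 3 counts per library. These are among the steepest differences in the whole comparison.

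Most other lists of cells outside the gate also had lower sums after depletion. Neutrophil markers summed to 296 and 9.19 CPM, fibroblast and pericyte markers to 845 and 76.9, dendritic cell markers to 1195 and 202, endothelial markers to 516 and 162, and lung epithelial markers to 240 and 98.9. Cd74 made up 723 and 144 CPM of the dendritic cell sums. Of the 7 measured endothelial markers, 5 were at least 2-fold lower, and the list median was -4.01. Most of the epithelial sum after depletion was Hopx, which T cells also express, at 95.3 and 80.8 CPM, and the other 3 measured members were at least 2-fold lower (list median -2.50). B cell and plasma cell markers summed to 438 and 369 CPM, of which Ighm, the heavy chain of IgM, made up 345 and 320 CPM. Of the 18 in that list, 1 had no count with isotype antibody and 8 had none after depletion. Group 2 innate lymphoid cell markers summed to 112 and 141 CPM, of which Gata3, which CD8 T cells express too, made up 69.5 and 109 CPM. Only Gata3 of the 10 in that list reached the minimum level. Of the 10, 2 had no count with isotype antibody and 5 had none after depletion. The natural killer cell list, which shares genes with cytotoxic CD8 T cells, summed to 2127 and 1796 CPM, but 7 of its 10 measured members were at least 2-fold lower. Among them were Fcgr3, an antibody receptor, at 70.8 and 0.255 CPM, and Tyrobp, an adaptor of activating receptors, at 84.2 and 1.79 CPM, both of which myeloid cells express too. In the IPF-LC pair, the macrophage markers summed to 3136 CPM with isotype antibody and 995 after depletion. What these transcripts contribute to the results that follow was not tested.

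**Figure D2:**
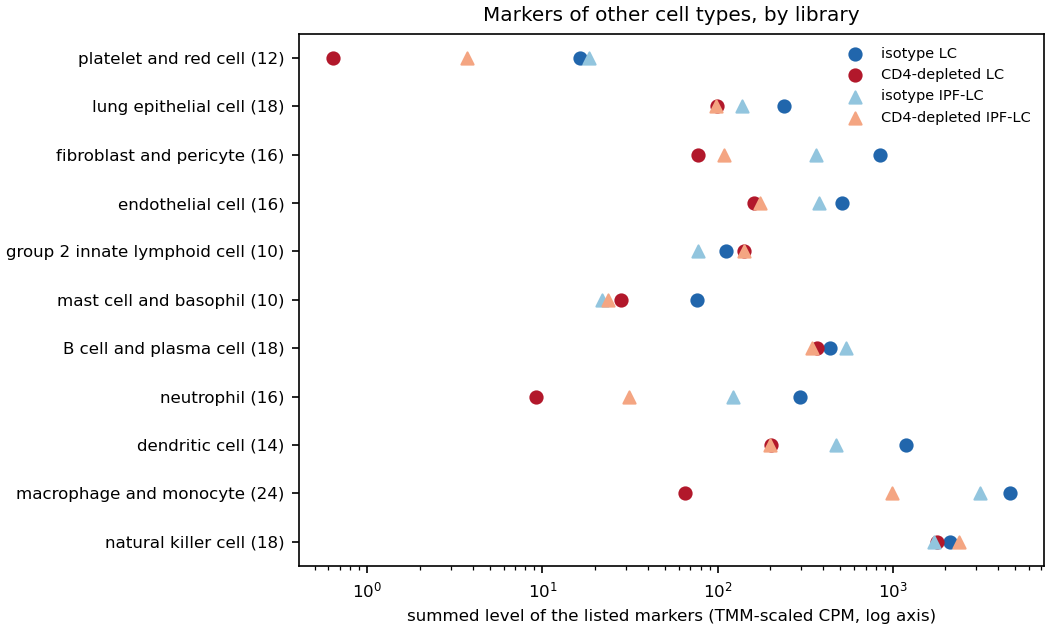
Summed level of the markers of each cell type (horizontal log axis, TMM-scaled CPM; the number of listed markers in parentheses) in each of the 4 libraries, circles for LC and triangles for IPF-LC. The CD4-depleted LC library has the lowest sum of the 4 for macrophage, neutrophil, endothelial and fibroblast markers, and its macrophage sum of 65.6 CPM lies far below the other 3.

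The genes at the bottom of the list were mostly genes known from myeloid cells. In all, 59 of the compared genes had no count after depletion. Their levels with isotype antibody ran from 20.3 to 116 CPM, which makes them at least 106-fold to 606-fold lower. The lower ends of these ranges follow from the minimum mean of 10 CPM and the floor on counts. A gene with no count after depletion can reach that mean only through the isotype library. Of the compared genes, 0 were undetected with isotype antibody. Besides Clec7a, the lowest by the counting bound nearest 0 included Syk, the kinase downstream of immunoreceptors, Csf1r, the growth factor receptor of macrophages, the complement receptor gene C5ar1, and Tnfaip2, Gpnmb, Mmp12, Mpeg1, Pla2g7 and Il13ra1. Csf1r had 2286 counts with isotype antibody and 2 after depletion. Gpnmb, a glycoprotein of lipid-laden macrophages, had 977 and 0, and Mmp12, the macrophage elastase, had 967 and 0. Spp1, which encodes the secreted matrix protein osteopontin, stood at 158 and 4.40 CPM (-5.15, -5.53 to -4.82).

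Among genes that averaged 200 CPM or more, the lowest ratios after Chil3 and Lyz2 were those of Thbs1, Gsn, Cd74, Plek, Litaf, Ctss, Ctsb and Ctsc. Thbs1, which encodes thrombospondin-1, a matrix protein that activates latent TGF-beta, stood at 662 and 14.9 CPM (-5.47). Gsn, the actin-severing gelsolin, stood at 458 and 51.0 CPM (-3.17). Cd74, the invariant chain of MHC class II, stood at 723 and 144 CPM (-2.32). Plek, the pleckstrin of platelets and leukocytes, stood at 454 and 109 CPM (-2.07), and Litaf, a protein of late endosomes, at 315 and 88.1 CPM (-1.84). The cathepsin genes Ctss, Ctsb and Ctsc, which encode lysosomal proteases, had ratios of -1.71, -1.49 and -1.34, and Ctsc also activates granzymes in cytotoxic cells.

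Chemokine ligand genes showed the lowest median of the lists other than those of cell type markers. All 9 measured members had ratios below 0 and 7 were at least 2-fold lower, with a median of -5.42, which is the same with undetected members set at their bound. The neutrophil attractants Cxcl1 and Cxcl2 had 544 and 2514 counts with isotype antibody and 0 and 59 after depletion. Ccl2, which draws monocytes, had 634 and 0. Ccl9 and Ccl6 had 1046 and 4765 counts with isotype antibody and 7 and 48 after depletion. Which cells these transcripts came from was not tested. Ccl3 and Ccl4, which T cells make as well, stood at 24.8 and 41.7 CPM with isotype antibody and at 1.59 and 9.12 after depletion. Ccl5, a chemokine of effector and memory CD8 T cells, stood at 726 and 404 CPM (-0.84, -0.89 to -0.80), and Cxcl10, an interferon-induced chemokine, had a ratio of -0.74.

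Genes of the killing machinery were lower after depletion or close to level. Gzmb, the granzyme that sets off apoptosis in target cells, stood at 283 CPM with isotype antibody and 160 after depletion (-0.82, -0.89 to -0.75). Prf1, the pore-forming perforin, stood at 171 and 70.3 CPM (-1.29, -1.39 to -1.18), and Gzma at 108 and 39.5 CPM (-1.45, -1.58 to -1.31). Serpinb9, an inhibitor that shields killer cells from their own granzyme B, stood at 241 and 83.4 CPM (-1.53, -1.63 to -1.44). Of the 18 measured granule genes, 4 were at least 2-fold lower and 0 higher, with a median of -0.44. The count lower was 7 with the identity genes centred on 0, and 2 when genes that are also natural killer cell markers (Gzma and Prf1) or markers of another cell type were left out. Of the 18, 13 had ratios below 0 and 5 above. Some genes of granule release lay near or above 0. Rab27a and Stx11, which bring granules to the membrane and fuse them, had ratios of -0.11 and 0.09. Unc13d, which primes them, had the highest of the list, 0.47. Srgn, the proteoglycan that packs granules, stood at 671 and 835 CPM (0.32).

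Cytokine and death ligand genes diverged. Ifng stood at 34.5 CPM with isotype antibody and 14.1 after depletion (-1.29, -1.52 to -1.06). Tnf stood at 20.6 and 7.46 CPM (-1.46, -1.79 to -1.16), and Tnfsf10, the death ligand TRAIL, at 25.6 and 5.87 CPM (-2.12, -2.47 to -1.80). Fasl, the ligand of the Fas death receptor, was close to level at 100 and 82.9 CPM (-0.27, -0.38 to -0.16). Tnfsf11 and Tnfsf8, ligands of RANK and CD30, had ratios of 0.93 and 0.86, and Ltb, which encodes lymphotoxin beta, one of 0.60. Of the 7 measured members, 3 were at least 2-fold lower (42.9%, against 6.58% of all compared genes) and 0 higher. None of those 3 reached 50 CPM.

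Killer cell lectin-like receptor genes, which encode activating and inhibitory receptors of natural killer cells and effector CD8 T cells, lay mostly below 0 (median -1.50), and 4 of the 6 measured were at least 2-fold lower, or 1 when markers of other cell types were left out. Klrk1, the activating receptor NKG2D, stood at 74.9 and 26.9 CPM (-1.48, -1.64 to -1.32). Klrc1, the inhibitory receptor NKG2A, stood at 233 and 123 CPM (-0.93), whereas Klrd1, its CD94 partner, stood at 125 and 165 CPM (0.39). Klra7 had a ratio of -1.52, but the Klra genes are near-identical copies between which the counting has to divide reads. Klrg1, a marker of short-lived effector cells, had 170 and 110 counts (-0.65, -1.01 to -0.29) and did not reach the minimum level.

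Inhibitory receptors and surface genes tied to exhaustion lay on both sides of 0, with a median of -0.48. Of the 16 measured, 6 were 2-fold lower or more (37.5%, against 6.58% of all compared genes) and 1 higher (6.25%, against 2.69%). With a minimum of 50 CPM, 2 of 8 were lower and the median was -0.10. Pdcd1, the receptor PD-1, stood at 136 CPM with isotype antibody and 85.6 after depletion (-0.66, -0.76 to -0.56). Havcr2, the receptor TIM-3, stood at 68.1 and 21.5 CPM (-1.66, -1.84 to -1.48), and Entpd1, the ectonucleotidase CD39, at 47.6 and 10.1 CPM (-2.23, -2.49 to -1.98). The steepest of the list were Cd244a (-4.52) and Lilrb4a (-3.76), receptors that natural killer and myeloid cells carry as well. Havcr2 and Entpd1 are not particular to CD8 T cells either, and which cells gave these values was not tested. Tigit was level at 37.8 and 38.4 CPM (0.02, -0.14 to 0.19), and Nt5e, the CD73 enzyme that acts downstream of CD39, stood at 137 and 192 CPM (0.49). Ctla4, which competes with CD28 for its ligands, was the one on the higher side, at 92.1 and 196 CPM (1.09, 1.00 to 1.18), and it came to 0.82 with the identity genes centred on 0.

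**Figure D3:**
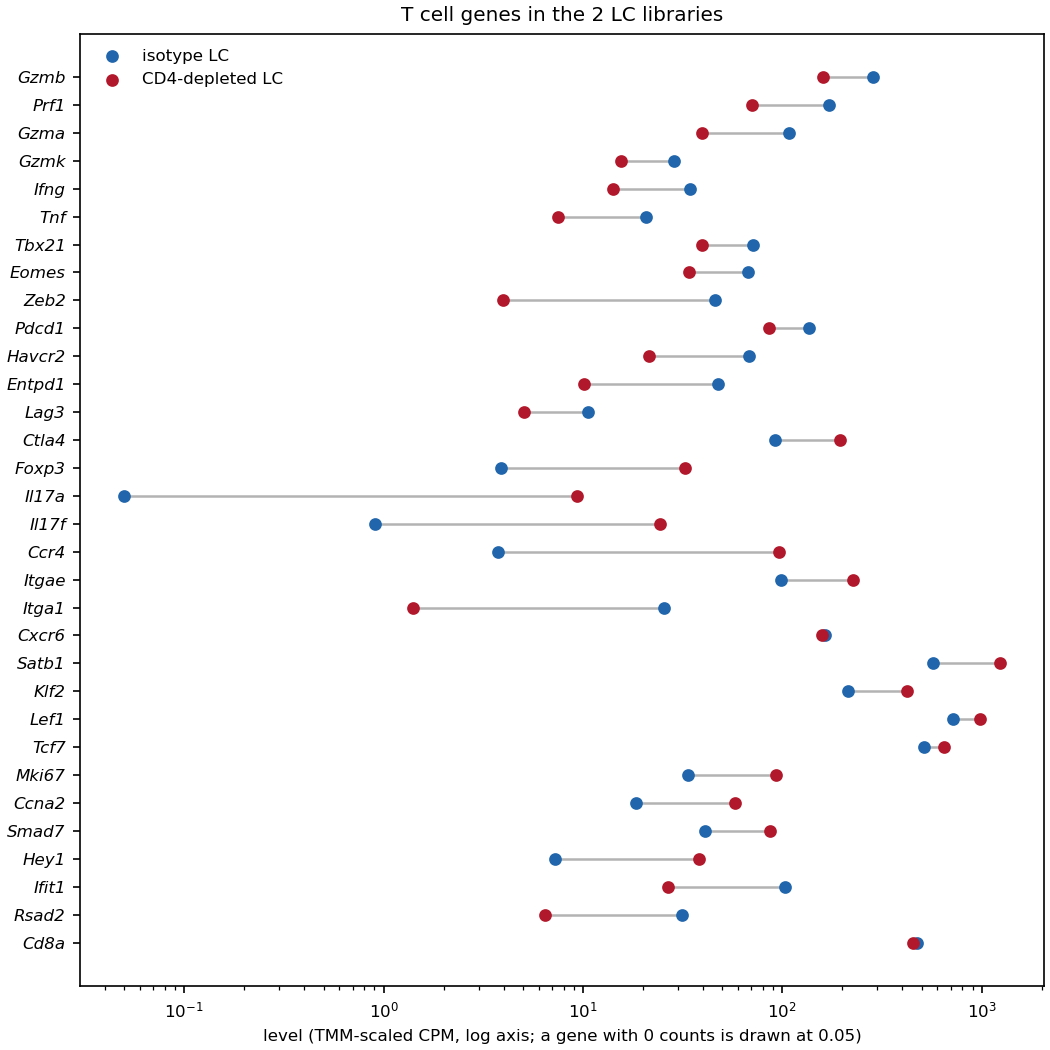
Level of each gene in the isotype LC library (blue) and the CD4-depleted LC library (red) on a horizontal log axis (TMM-scaled CPM), with a gene at 0 counts drawn at 0.05; 1 library per point, with no error bar. Granzyme and perforin genes lie lower after depletion, Foxp3, Il17a, Il17f and Ccr4 lie higher, and Cd8a and Cxcr6 nearly coincide.

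Transcription factors of effector cells went in both directions. Tbx21, which encodes T-bet, stood at 71.4 and 39.4 CPM (-0.86), and Eomes, its relative, had 1035 and 533 counts (-0.98, -1.13 to -0.83). Zeb2, which acts with T-bet in terminal effector cells and is also made by macrophages, stood at 45.9 and 3.96 CPM (-3.53, -3.94 to -3.16), and Irf8, a myeloid and B cell factor induced in activated CD8 T cells, at 146 and 12.2 CPM (-3.58). Tox, the factor of exhausted T cells, had a ratio of -0.26 (-0.38 to -0.14), and the activation-induced Nr4a1, Nr4a2 and Nr4a3 had ratios of -0.13, 0.04 and -0.11. On the other side stood Maf (0.99), Ikzf3 (0.77) and Ikzf2 (0.73). Only Zeb2 and Irf8 of the 19 measured members were 2-fold apart, both lower (10.5%, against 6.58% of all compared genes). The list's median was -0.11.

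Genes of naive and memory T cells were level or somewhat higher after depletion. Satb1, a chromatin organiser of quiescent T cells, stood at 571 and 1235 CPM (1.11, 1.08 to 1.15), and Klf2, which keeps T cells circulating, at 213 and 420 CPM (0.98, 0.92 to 1.04). Foxo1, which drives Klf2 and Il7r, stood at 158 and 295 CPM (0.91, 0.83 to 0.98). S1pr1, the receptor that lets T cells leave tissue, had a ratio of 0.67, Lef1 one of 0.45 and Tcf7, the TCF-1 factor, one of 0.33. Il7r and Ccr7 were level (0.03 and 0.00). The 25 measured members had a median of 0.26 and 19 ratios above 0, but the median came to -0.01 with the identity genes centred on 0. Ly6c1 ran against the list with 548 counts and 3 (-7.31), and Ly6c2, a near-identical neighbour, stood at 408 and 211 CPM (-0.95), so reads between these could have been split either way. In IPF-LC their ratios were -4.84 and -0.65, and which cells the Ly6c1 reads came from was not tested.

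The genes of tissue residency lay on both sides of 0. Itgae, the CD103 chain that holds T cells to epithelial cadherin, stood at 99.0 and 226 CPM (1.19, 1.10 to 1.28), and at 0.92 with the identity genes centred on 0. Itgb7, with which CD103 pairs, stood at 623 and 1028 CPM (0.72). Itga1, the collagen-binding CD49a chain, stood at 25.6 and 1.40 CPM (-4.16, -4.88 to -3.57). Cxcr6 was level at 164 and 159 CPM (-0.05), and Cd69, which blocks exit from tissue, stood at 521 and 760 CPM (0.54). Of the 16 measured members, 4 were at least 2-fold lower (25%, against 6.58% of all compared genes) and 1 higher (6.25%, against 2.69%). The 4 were Itga1, Cdh1 (-3.10), Litaf (-1.84) and Ccr8 (-1.17). Cdh1 is also on the lung epithelial list and Ccr8 on the regulatory T cell list, and which cells gave these values was not tested. The median of -0.06 turned to 0.19 with a minimum of 50 CPM.

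Receptors for chemokines and adhesion showed single large differences. Ccr4, a receptor of type 2 helper, regulatory and skin- and lung-homing T cells, stood at 3.75 CPM with isotype antibody and 96.3 after depletion (4.67, 4.30 to 5.09), a 25.5-fold difference and one of the largest on the higher side. Cxcr3, the receptor of type 1 effector cells, stood at 74.2 and 115 CPM (0.63). Ccr1, which myeloid cells use, had a ratio of -3.51. Among integrins, Itgb3 (1.44), Itga6 (1.35) and Itgae were at least 2-fold higher, and Itgam, Itga5, Itga1 and Itgax, of which Itgam and Itgax define macrophages and dendritic cells, were at least 2-fold lower.

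Receptors for growth and costimulatory signals were also mixed. Tnfrsf25, the death receptor DR3 that costimulates T cells, stood at 6.92 and 33.6 CPM (2.27, 1.98 to 2.59), and Slamf1 at 16.9 and 45.7 CPM (1.44). Tnfrsf9, the receptor 4-1BB induced by antigen, stood at 99.9 and 41.7 CPM (-1.26, -1.39 to -1.13). Il18r1, a chain of the interleukin-18 receptor, stood at 29.0 and 75.2 CPM (1.37, 1.22 to 1.54), while Il12rb2 of the interleukin-12 receptor stood at 61.0 and 26.8 CPM (-1.19). Il10ra had a ratio of -1.41. Il1r2, a decoy receptor for interleukin-1, stood at 79.3 and 6.38 CPM (-3.63), and Csf2rb, the shared chain for GM-CSF, at 64.5 and 0.255 CPM (-7.81). The shared chains of the interleukin-2 family, Il2rg (0.32) and Il2rb (0.05), were close to level. No member of the JAK, STAT and SOCS list was 2-fold apart. Its extremes were Stat5b, at 305 and 530 CPM (0.80), and Stat3, at 876 and 531 CPM (-0.72).

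In the TGF-beta pathway 3 of 16 measured members were at least 2-fold higher (18.75%, against 2.69% of all compared genes). The 1 that was lower (6.25%) is near the 6.58% of all compared genes. Smad7, the feedback inhibitor that the pathway itself induces, stood at 40.9 and 86.8 CPM (1.09, 0.95 to 1.22). Smurf1, the ubiquitin ligase that Smad7 recruits to the receptor, stood at 15.9 and 33.6 CPM (1.08), and Furin, which cleaves the TGF-beta precursor, at 34.9 and 82.2 CPM (1.23, 1.09 to 1.38). Tgfbr1, the kinase receptor, stood at 81.0 and 35.5 CPM (-1.19, -1.34 to -1.04), while Tgfbr2, the ligand-binding receptor, stood at 668 and 865 CPM (0.37). Smad7, Smurf1 and Furin came to 0.81, 0.81 and 0.96 with the identity genes centred on 0, which also moved the list's median from 0.23 to -0.04. Of 14 Notch pathway genes, Hey1, a repressor induced by Notch, was the one that was 2-fold apart, at 7.25 and 38.4 CPM (2.40, 2.11 to 2.71), and the median was 0.00.

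Transcripts of T cell subsets other than cytotoxic CD8 cells were higher after depletion in several cases. Foxp3 had 60 counts with isotype antibody and 510 after depletion, or 3.88 and 32.5 CPM (3.06, 2.68 to 3.48). Of the other regulatory T cell markers, Ikzf2 stood at 23.2 and 38.5 CPM (0.73, 0.54 to 0.92) and Nrp1 at 42.3 and 57.5 CPM (0.44). Il2ra stood at 30.3 and 37.4 CPM (0.30) and Tnfrsf18 at 164 and 181 CPM (0.14), while Ccr8 stood at 15.1 and 6.70 CPM (-1.17). Among the 9 measured members, 8 had a ratio above 0. At least 2-fold higher were 2, Foxp3 and Ctla4 (22.2%, against 2.69% of all compared genes). In the other direction 1 was lower (11.1%, against 6.58%). Il1rl1, the interleukin-33 receptor, had 73 and 227 counts and Lrrc32, which presents latent TGF-beta on regulatory T cells, 162 and 49. Both lay under the minimum level and were chosen after their values were seen. The list as a whole had a median of 0.41, well under the ratio of Foxp3 itself.

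Genes of interleukin-17-producing T cells were among those with the highest ratios. Il17f had 14 counts with isotype antibody and 381 after depletion (4.70, 3.98 to 5.63). Il17a had 0 and 147 counts, at least 48.3-fold higher by the floor of 3 counts. Of the 8 members that reached the minimum level, 4 were at least 2-fold higher and 0 lower. Besides Il17f these were Serpinb1a, at 28.7 and 77.7 CPM (1.43), Aqp3, with 309 and 748 counts, and Rora, a nuclear receptor of type 17 cells (1.22). Aqp3 and Rora came to 0.98 and 0.95 with the identity genes centred on 0. Other members lay under the minimum level and were looked up after Il17f had been seen. Il22 had 0 and 70 counts, and Ccr6 had 5 and 129. Sox13, Zbtb16 and Blk, which are known from gamma delta and innate-like T cells, ran the other way, with 52, 71 and 70 counts with isotype antibody and 0, 0 and 16 after depletion. Trdc, the constant gene of the gamma delta receptor, stood at 19.3 and 10.5 CPM (-0.88, -1.17 to -0.60).

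CD4 helper markers other than Cd4 had a median of 0.64 over 7 measured members, with 2 at least 2-fold higher, Ccr4 and St8sia1 (1.06, or 0.79 with the identity genes centred on 0). Gata3, the factor of type 2 cells that CD8 T cells express too, stood at 69.5 and 109 CPM (0.64), and Icos at 293 and 428 CPM (0.54). Bcl6 and Cxcr5, the factor and homing receptor of follicular cells, had ratios of -0.55 and -0.41. Cd40lg, the helper signal to antigen-presenting cells, had 44 and 195 counts, and was chosen after its values were seen. The cytokine genes Il4, Il13 and Il21 had no count in either library.

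Genes of cell division were higher after depletion. Of the 57 measured mitosis genes, 52 had a ratio above 0, 18 were at least 2-fold higher and 0 were 2-fold lower, with a median of 0.78 against 0.05 over all genes. Mki67, the proliferation antigen Ki-67, stood at 33.7 CPM with isotype antibody and 92.9 after depletion (1.46, 1.32 to 1.61). Top2a, the topoisomerase that untangles chromosomes, stood at 94.3 and 198 CPM (1.07), Ccna2, cyclin A2, at 18.4 and 57.6 CPM (1.64, 1.45 to 1.84), and Foxm1, a transcription factor that activates mitotic genes, at 6.99 and 26.3 CPM (1.91). Kif15, a spindle motor, stood at 5.37 and 20.9 CPM (1.95, 1.61 to 2.32), and Hmmr, a spindle assembly protein, at 3.95 and 21.7 CPM (2.45, 2.06 to 2.88). Aurkb and Bub1, of the chromosome attachment checkpoint, were level (0.00 and -0.02), and Cenpe (-0.51) and Kif20b (-0.59) were the lowest of the list. With the identity genes centred on 0, 15 mitosis genes were still at least 2-fold higher, and the median was 0.51. With a minimum of 50 CPM, 4 of 14 were, with a median of 0.78.

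DNA replication genes showed a smaller shift of the same sign. The median over 43 measured genes was 0.41, with 7 at least 2-fold higher and 0 lower. Mcm10, which starts unwinding at origins, stood at 5.50 and 19.3 CPM (1.80, 1.46 to 2.17), and Pclaf, a partner of the sliding clamp, at 44.0 and 118 CPM (1.42). Rrm2, the ribonucleotide reductase subunit that limits nucleotide supply, stood at 59.0 and 134 CPM (1.19) and came to 0.91 with the identity genes centred on 0, a scaling under which 2 of the 7 remained at 2-fold. The helicase genes Mcm2 to Mcm7 ran from 0.08 for Mcm5 to 0.58 for Mcm3. Myc, a driver of cell growth, stood at 161 and 70.6 CPM (-1.19, -1.29 to -1.08), and Cdkn1a, the p21 inhibitor of the cell cycle, at 194 and 80.0 CPM (-1.28, -1.38 to -1.18).

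Promoters of many mitotic genes carry the cell cycle homology region, whose core TTTGAA is bound by the MuvB complex. The core was searched on both strands in RefSeq promoter windows on build GRCm38.p6, which run from 250 bases before a gene's start to 50 bases after it. It was present for 31 of the 46 mitosis genes with a window (67.4%), against 14.2% of all compared genes with a window and 17.9% of all 32851 windows. The share was 73.3% among the 15 mitosis genes at least 2-fold higher and 64.5% among the 31 within 2-fold. Of all genes at least 2-fold higher 20.2% held it, and of all at least 2-fold lower 14.5%. Of the 37 higher genes that held it, 11 were members of the mitosis list. A match of 6 letters is a description of the window and no evidence of binding. The stretches below, which end before the start site, show it in 3 of the genes that were at least 2-fold higher, and capitals mark the core on either strand. Kif15 lies on the plus strand at chr9:122951027-122951080, Mki67 on the minus strand at chr7:135716437-135716512 and Ube2c, a ubiquitin-conjugating enzyme of mitotic exit, on the plus strand at chr2:164769865-164769928.
Kif15: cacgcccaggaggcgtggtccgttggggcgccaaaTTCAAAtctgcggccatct
Mki67: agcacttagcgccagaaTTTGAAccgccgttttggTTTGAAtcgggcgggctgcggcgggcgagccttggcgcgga
Ube2c: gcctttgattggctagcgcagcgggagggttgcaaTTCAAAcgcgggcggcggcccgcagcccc
The core nearest the start site begins 19 bases before it in Kif15, 98 in Mki67 and 29 in Ube2c, and the Mki67 stretch holds 2 copies.

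Genes of the type I interferon response were lower after depletion. Of 49 measured members, 45 had a ratio below 0, 17 were at least 2-fold lower and Ifi27l2a alone was 2-fold higher (1.02). Ifi27l2a came under 2-fold with library totals, DESeq2 size factors, TMM from the LC pair or the identity genes centred on 0. The median was -0.65. Ifit1, which binds viral RNA that lacks a host cap, stood at 103 CPM with isotype antibody and 26.8 after depletion (-1.95, -2.11 to -1.79). Rsad2, the antiviral enzyme viperin, stood at 31.4 and 6.44 CPM (-2.28, -2.61 to -1.97), Mx1, a GTPase against influenza viruses, at 17.6 and 2.87 CPM (-2.60, -3.10 to -2.16), and Oasl2 at 32.0 and 7.66 CPM (-2.06). The pair Ifit3 and Ifit3b, at -1.88 and -3.07, are near-identical copies whose single values depend on how reads were divided. The factors that carry the signal were closer to level, with ratios of -0.09 for Irf9 and -0.50 for Stat2, while Irf7, which the response induces, had -0.69. The receptor genes Ifnar1 and Ifnar2 had ratios of 0.19 and -0.25. With a minimum of 50 CPM, 1 of 25 members was lower and the median was -0.39.

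Targets of interferon-gamma showed a weaker pattern, with 5 of 26 measured members at least 2-fold lower, 0 higher and a median of -0.31. The count lower was 8 with the identity genes centred on 0, and 1 with a minimum of 50 CPM. The immunity-related GTPases Iigp1 and Irgm2, which attack vacuoles of intracellular parasites, had ratios of -1.84 and -1.14. Serping1, a complement inhibitor, had one of -5.25 and Irf8 one of -3.58. Irf1, an early transcription factor of the response, was nearly level at 511 and 475 CPM (-0.10). MHC class I genes were level too: H2-D1 (0.01), H2-K1 (0.04) and B2m (0.11), and 0 of 18 were 2-fold apart.

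Interferon-induced genes are switched on through the interferon-stimulated response element, whose core is GAAA, any 2 bases, and GAAA again. The core was present on either strand in the RefSeq window of 21 of the 37 interferon list genes with a window (56.8%), against 4.10% of all compared genes and 3.44% of all windows. Within the list the share was 64.3% of the 14 at least 2-fold lower and 52.2% of the 23 within 2-fold. Across all compared genes, 7.13% of those at least 2-fold lower and 2.73% of those at least 2-fold higher held it. Of the 30 lower genes that did, 9 were members of the list, and the higher share rests on 5 of 183 genes. The stretches below are from members at least 2-fold lower, with the core in capitals as it reads on the gene's own strand. Ifit1 lies on the plus strand at chr19:34640769-34640848, Rsad2 on the minus strand at chr12:26456528-26456607 and Ifit3b on the plus strand at chr19:34607768-34607847 (all GRCm38.p6).
Ifit1: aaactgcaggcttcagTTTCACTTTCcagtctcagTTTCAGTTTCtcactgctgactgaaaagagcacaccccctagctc
Rsad2: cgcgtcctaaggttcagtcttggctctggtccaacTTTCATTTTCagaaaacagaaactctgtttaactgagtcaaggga
Ifit3b: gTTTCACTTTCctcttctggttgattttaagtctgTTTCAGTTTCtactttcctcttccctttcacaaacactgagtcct
The Ifit1 and Ifit3b stretches each hold 2 cores. The matching stretch of Ifit3, at chr19:34583372-34583451, is identical to that of Ifit3b base for base.

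Immediate early genes and genes of tissue handling were lower on balance. Of 19 AP-1 and EGR family genes, 4 were at least 2-fold lower and 1 higher, with a median of -0.28. Fos stood at 461 and 207 CPM (-1.16), Fosb had 1553 and 266 counts (-2.56), Atf3, a stress-induced repressor, stood at 195 and 31.1 CPM (-2.65) and Ier3 at 76.0 and 3.44 CPM (-4.45). Dusp2, a phosphatase that shuts off ERK in activated T cells, was the one at least 2-fold higher, at 68.7 and 221 CPM (1.69, 1.59 to 1.79). Junb (0.08) and Tnfaip3, the A20 brake on NF-kappa B (-0.01), were level. The list of dissociation genes, which shares members with this one, had 3 of its 17 members at least 2-fold lower and a median of -0.46. Its part in the other results was not tested.

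Metabolic and survival genes were close to level, with a few exceptions. None of 33 oxidative phosphorylation genes was 2-fold apart, with a median of 0.06, or -0.21 with the identity genes centred on 0. Of 23 glycolysis and hypoxia genes, 3 were at least 2-fold lower: Slc16a3, the lactate exporter, at 64.0 and 7.72 CPM (-3.05), Vegfa (-1.59) and Pfkfb3 (-1.41). Of the 23, 16 had a ratio below 0 and the median was -0.18. Among enzymes of the pathway itself, Gapdh (-0.17) and Ldha (0.08) were near level. Tpi1, another of them, stood at 80.6 and 47.4 CPM (-0.76, -0.90 to -0.63). In fatty acid metabolism, uptake and storage genes that macrophages express were lower, namely Cd36 (-6.48), Lpl (-5.41) and Plin2 (-3.70), whereas Cpt1a, which admits fatty acids to mitochondria, had a ratio of 0.62. Mcl1 and Bcl2l1, survival proteins of the BCL2 family, went opposite ways at 0.93 and -0.90, and Bcl2 was level (-0.08). All 48 ribosomal protein genes had ratios above 0, with a median of 0.29, close to the 0.27 of the CD8 identity genes. Mitochondrially encoded genes took 1.50% of the counts with isotype antibody and 1.39% after depletion.

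**Figure D4:**
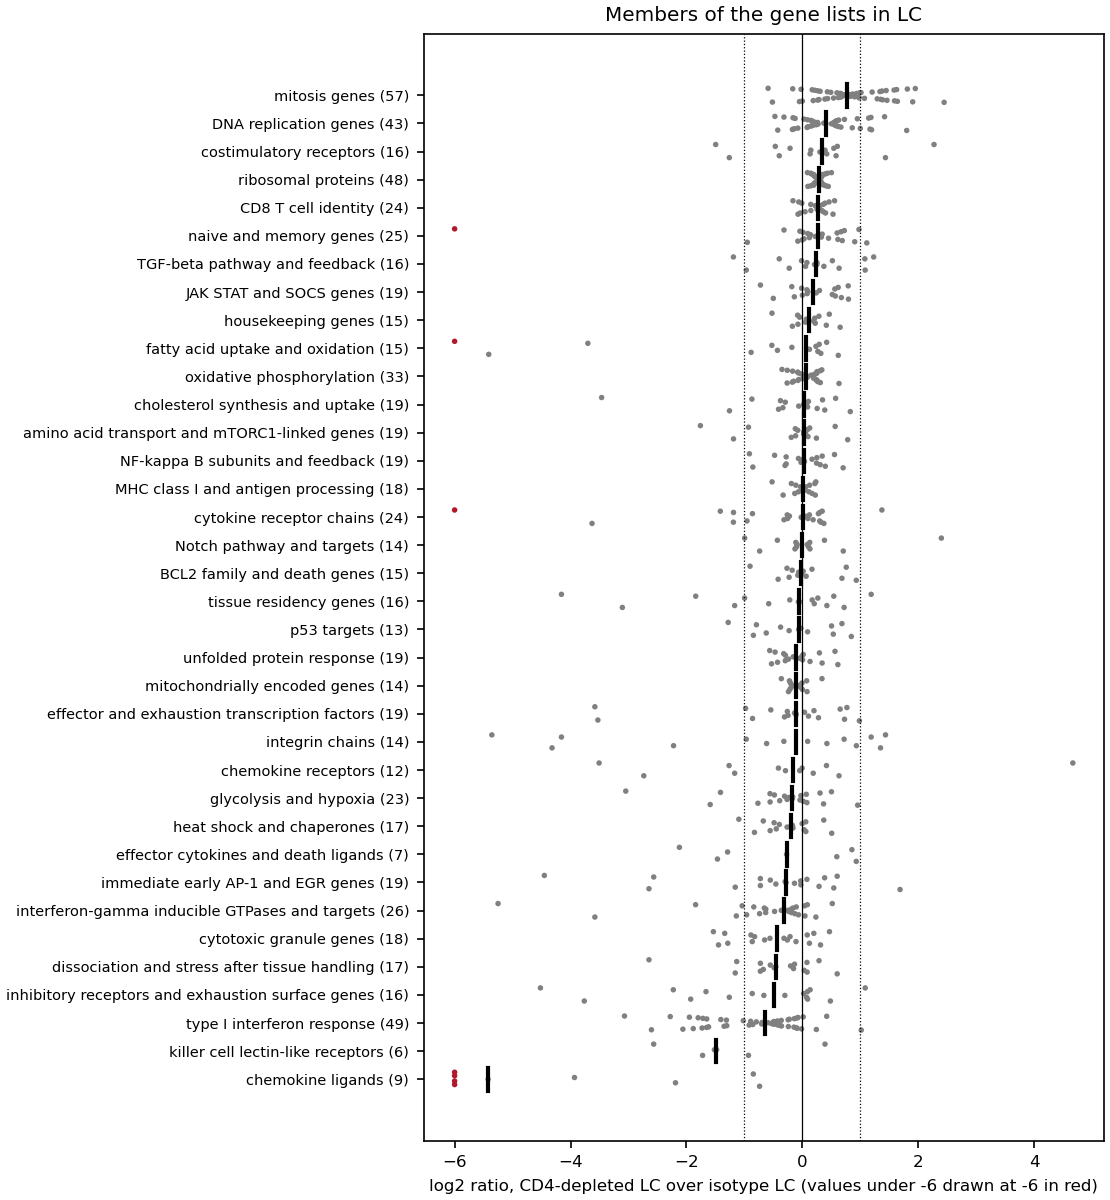
Log2 ratio (horizontal axis, CD4-depleted over isotype) of each measured member of the gene lists, with the number of members in parentheses and a black bar at the median; dotted lines mark 2-fold and red points stand for values under -6. Mitosis genes have the highest median (0.78) and chemokine ligands the lowest (-5.42) of the lists drawn.

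Among genes of 200 CPM or more, 7 were at least 2-fold higher, Satb1 among them. Ppp2ca, the catalytic subunit of phosphatase 2A, stood at 139 and 393 CPM (1.50, 1.43 to 1.57), Smarca5, a chromatin remodelling ATPase, at 155 and 419 CPM (1.44, 1.37 to 1.50), and Rac1, a GTPase of the actin cytoskeleton, at 181 and 452 CPM (1.32). Satb1 (1.11), Gnas (1.10), S100a10 (1.08) and Mknk2 (1.03) followed, each under 2-fold with the identity genes centred on 0. Arf6, a GTPase of membrane traffic, stood at 52.7 and 214 CPM (2.02, 1.91 to 2.14). Of lower level were Spag5, a spindle protein (2.87), Trim62 (2.33), Prkaca, the catalytic subunit of protein kinase A (2.23), Zdhhc2 (2.16) and Lrig1, a brake on growth factor receptors (2.11).

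The IPF-LC pair, which shares no library with the LC pair, shows where the LC values differ. On the same 8498 genes, 361 were at least 2-fold higher and 545 lower after depletion there. Of the 229 genes higher in LC, 58 were also higher in IPF-LC (25.3% of the LC genes and 16.1% of the IPF-LC genes), and 6 were lower. Of the 559 genes lower in LC, 272 were also lower in IPF-LC (48.7% and 49.9%), and 27 were higher. The 58 of 229 and 272 of 559 are larger shares than 361 and 545 of all 8498. In contrast, 27 of 559 is close to 361 of 8498, and 6 of 229 is under 545 of 8498. The 17 measured macrophage and monocyte markers were all lower in LC, and 15 of them in IPF-LC. Ratios above 1 in both models were found for Ccr4 (4.67 and 2.05), Foxp3 (3.06 and 4.28), Il17f (4.70 and 3.23), Hey1 (2.40 and 2.11), Lrig1 (2.11 and 2.03) and Smad7 (1.09 and 1.54). The effector genes did not run alike: Gzmb had -0.82 in LC and 1.01 in IPF-LC, Gzmk -0.88 and 2.59, Pdcd1 -0.66 and 1.88, Tbx21 -0.86 and 0.91, and Stat3 -0.72 and 1.31. With isotype antibody Gzmb stood at 283 CPM in LC and 97.3 in IPF-LC, and after depletion at 160 and 196. Prf1, Gzma and Klrk1 had ratios below 0 in both models, of -1.29, -1.45 and -1.48 in LC and -0.30, -0.30 and -0.40 in IPF-LC. Itgae went from 210 to 169 CPM in IPF-LC (-0.31), opposite to its ratio in LC. Whether the models differ cannot be tested with 1 library per treatment in each.

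**Figure D5:**
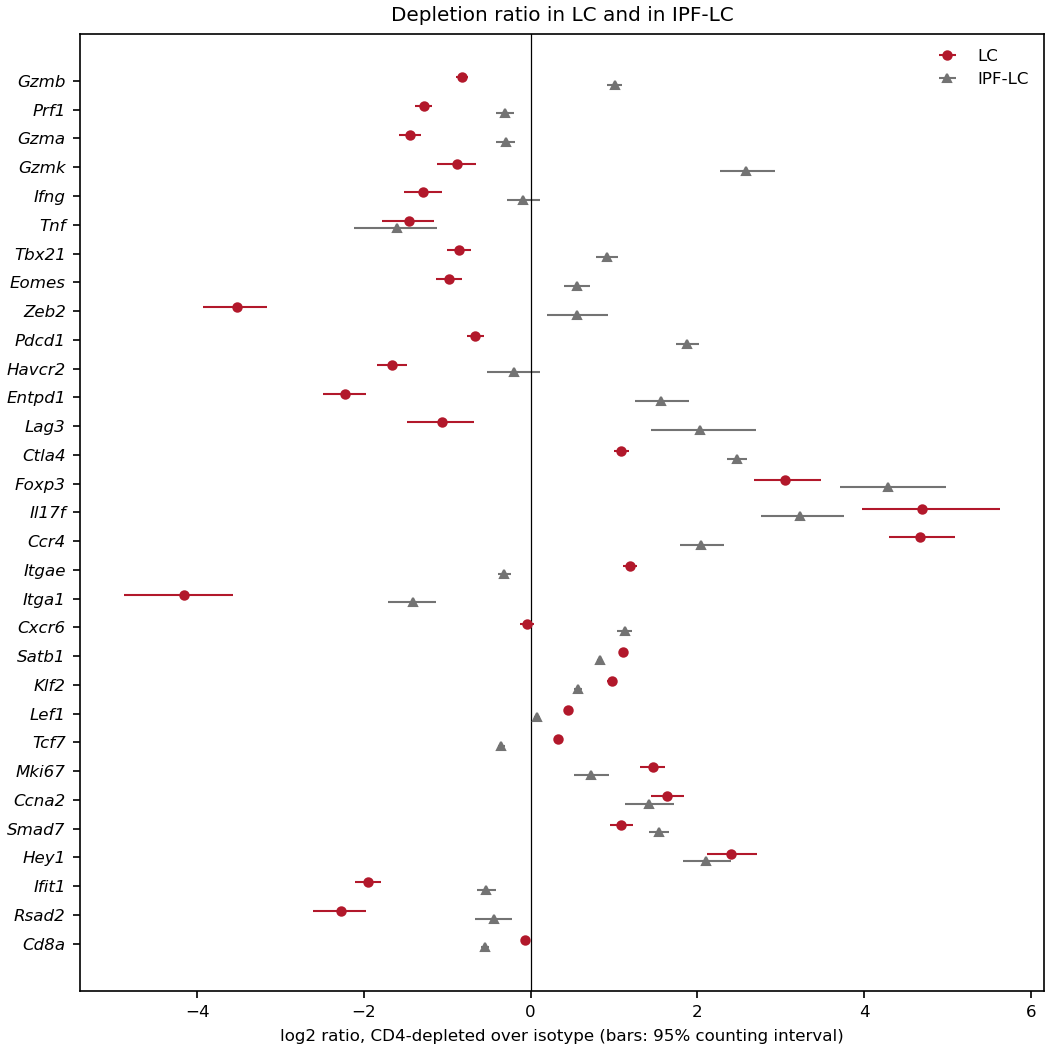
Log2 ratio of CD4-depleted over isotype (horizontal axis) in LC (red circles) and IPF-LC (grey triangles) for T cell genes, with bars for the 95% counting interval, which leaves out differences between mice. Gzmb, Gzmk, Tbx21, Zeb2, Pdcd1 and Entpd1 lie on opposite sides of 0 in the models, while Foxp3, Il17f, Ccr4 and Hey1 lie above 0 in both.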

How the data were processed

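Per the labels' protocols, polyadenylated RNA of the sorted cells was amplified with SMART-Seq v4 before libraries were built with NEBNext Ultra II reagents. The authors deposited 1 table per library with an expected count, a TPM and an FPKM per gene, and gene lengths, which were not used. FPKM was not used either. Per the submitters' processing notes, the tools were RSEM 1.3.3, STAR 2.7.11a, MultiQC 1.25.2 and fastp 0.23.4, with the builds GRCm39 and mm39 and no roles given; the annotation and the strand setting are not given in the sources used here. Estimated counts divide ambiguous reads between near-identical genes, so single values of such genes (Ifit3 and Ifit3b, Ly6c1 and Ly6c2, the Klra, Gbp and H2 families) are uncertain, as are those of antisense partners.

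Expected counts were rounded to whole numbers (between 5.49% and 5.89% of values were not whole) and scaled by TMM factors over the 4 libraries (edgeR 4.0.16, R 4.3.3). Depth ran from 14946569 to 16217672 counts per library, and the 95% intervals cover counting error only. The log2 ratio used a prior count of 0.5, a gene was compared at a mean of at least 10 CPM over the LC pair and called at 2-fold, and genes at 0 were given a bound from a floor of 3 counts per library. With 1 library per group no test was run. The arithmetic was tested on simulated data. The members, the 52 gene lists and the alternatives were chosen with earlier results of these data known. Alternatives were library totals, DESeq2 1.42.0 size factors, TMM from the LC pair, centring on the CD8 identity genes, other minimum levels, a prior count of 2, the deposited TPM values (pseudocount 0.1), calls by the counting interval, and leaving out markers of other cell types.

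Genes named by rule were the 12 highest and 12 lowest by the interval bound nearest 0, the 10 highest and 10 lowest ratios at a mean of at least 200 CPM, the members with the largest absolute ratio in each list (at most 5), and a preset set; some were left out for length, and some are not reported here. Other list members were named for their roles after their values were seen: Aurkb, B2m, Bcl2, Blk, Bub1, Ccl3, Ccl4, Ccl5, Ccr6, Ccr7, Cd40lg, Cd69, Cenpe, Cxcl10, Cxcr5, Gapdh, H2-D1, H2-K1, Icos, Ifi27l2a, Ifnar1, Ifnar2, Ikzf3, Il12rb2, Il1rl1, Il22, Il2ra, Il2rb, Il2rg, Irf1, Irf7, Irf9, Itga6, Itgb7, Junb, Kif20b, Klrd1, Ldha, Lrrc32, Ltb, Mcm3, Mcm5, Nr4a1, Nr4a2, Nr4a3, Nt5e, Rab27a, Runx3, S1pr1, Sox13, Srgn, Stat2, Stx11, Tgfbr2, Tnfaip3, Tnfrsf18, Top2a, Ube2c, Unc13d and Zbtb16. Promoter windows came from RefSeq on GRCm38.p6, matched by symbol for 6797 of the 8498 compared genes.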

Additional observations from a re-analysis of the deposited data

Results flagged for a closer look

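Among the named genes that averaged 10 CPM or more over the LC pair, 5 were at least 2-fold lower after depletion in LC and at least 2-fold higher in IPF-LC. The ratio in LC minus that in IPF-LC was -6.24 for Il1r2, the interleukin-1 decoy receptor, -3.97 for Ccr8, a chemokine receptor of regulatory T cells, and -3.79 for Entpd1, the CD39 ectonucleotidase. It was -3.19 for Il10ra, the interleukin-10 receptor chain, and -3.11 for Tnfrsf9, the receptor 4-1BB. With isotype antibody all 5 stood higher in LC than in IPF-LC. The levels were 79.3 and 1.98 CPM for Il1r2, 15.1 and 2.82 for Ccr8, and 47.6 and 6.78 for Entpd1. For Il10ra they were 46.7 and 16.6 CPM, and for Tnfrsf9 99.9 and 14.2. After depletion all 5 stood lower in LC than in IPF-LC. With 1 library per group in each model the difference was not tested, and neither was which cells these transcripts came from. Lag3, an inhibitory receptor under that minimum, had ratios of -1.07 in LC and 2.04 in IPF-LC.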

How the results depend on the processing

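Each comparison has 1 library a side, so no library could be left out, and no difference here is backed by a replicate. No paired analysis was possible because each group has 1 library. The count of genes at least 2-fold higher, 229, came to 114 with the CD8 identity genes centred on 0, to 142 by the counting interval, and to 733, 66 and 2276 with a minimum of 1 CPM, a minimum of 50 CPM and no filter. The count lower, 559, came to 1979, 95 and 4711 under those 3 filters. The cause was not tested; the filters change which genes are compared. Under library totals, DESeq2 size factors, TMM from the LC pair, a minimum over 4 libraries, a prior count of 2, TPM and without the markers of other cell types, the counts ran from 206 to 228 higher and from 493 to 626 lower. Of 274 named genes 157 were 2-fold apart, and 18 of these came under 2-fold in an alternative that rescales or recounts; 0 changed sign. Medians of 15 of 48 lists changed sign in some setting. Depth limits the genes under the minimum, where a few counts decide a ratio.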

Other observations

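The T cell receptor beta variable segments gave a view of the cells that the gene lists do not. Of 35 listed segments, 22 were detected with isotype antibody and 23 after depletion, and they summed to 174 CPM with isotype antibody and 230 CPM after depletion. Trbv16 took the largest share in both, 12.2% and 13.1% of the counts over these segments. Trbv19 had 322 counts in each library, Trbv20 took 4.09% and 1.53%, and Trbv17 8.29% and 5.77%. Trbv12-1 had 196 and 362 counts, Trbv3 took 5.80% and 8.10%, and Trbv2 2.27% and 4.88%. The spread of these shares between mice is not known with 1 library per group.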
